A study of Mus musculus with 16 samples.

Results

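Streptavidin capture of RNA carrying the aldehyde reactive probe (ARP) was examined in unstressed Neuro 2a cells, a mouse neuroblastoma line. The comparison set the 4 arrays labelled Basal-ARP against the 4 labelled Basal-total, 8 of the 16 arrays of the series, and the arrays were taken by title. Basal-ARP is RNA of untreated cells that was labelled with ARP and then captured on streptavidin magnetic beads under stringent washing. Basal-total is RNA of untreated cells labelled with ARP in the same way and hybridised without capture. The 4 Ox-ARP and 4 Ox-total arrays, the same captured and uncaptured fractions of cells exposed to hydrogen peroxide, were used in places to set capture with peroxide beside capture without it. All groups carry the cell line label Neuro 2a and the strain label C57BL/6J, and all were labelled with ARP. No group held RNA taken through the beads without ARP, so abasic sites and retention on the beads for other reasons cannot be told apart. The sources used here do not say whether replicates came from separate cultures. The p-values therefore measure the spread between these arrays, which may be technical.

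An abasic site is a sugar in a nucleic acid chain that has lost its base. The sugar exposes an aldehyde, ARP couples to aldehydes, and the biotin on ARP allows the strand to be held by streptavidin. Oxidised bases are one known source of such sites, and abasic RNA is also made by enzymes that remove a base. Neurons and neuron-like cells are often studied for RNA oxidation because of their high oxygen use.

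Captured and uncaptured arrays were alike in brightness. Mean probe intensity was 390 ± 71.7 in Basal-ARP and 435 ± 65.6 in Basal-total (SD, n = 4 arrays each), and 10906 to 11068 probes were detected per Basal-ARP array against 10650 to 10848 per Basal-total array, of 25697. Replicate 3 was the brightest array of both groups. Of 20 neuronal and neuroblastoma identity genes, 16 were detected on all 4 arrays of both groups and 3 (Tubb3, Nefm and Nefl) on none. Their summed normalised level ran from 20700 to 23200 in Basal-ARP and from 22700 to 25100 in Basal-total. Of 17 markers of other cell types, 1 gene (Mbp) was detected on every array of both groups, and 12 were detected on no Basal-ARP array and 13 on no Basal-total array. The summed level of these 17 ran from 620 to 662 in Basal-ARP and from 593 to 638 in Basal-total. No position on a chip was used for more than 1 group, and the effects of position and group cannot be told apart.

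Capture shifted the relative representation of about as many transcripts upward as downward. Levels below are log2 intensities after background correction and quantile normalisation, and changes are Basal-ARP minus Basal-total on that scale with limma's standard error. Of 8072 genes (a gene being represented by its brightest probe, and probes without a symbol being counted too), 2619 were called at an adjusted p under 0.05, which is 32.4% of those tested. Of these, 1321 genes (16.4%) rose and 1298 (16.1%) fell. The 4 Basal-ARP values lay entirely above the 4 Basal-total values for 1153 genes (14.3%) and entirely below them for 1075 genes (13.3%). The median change was 0.42 among genes that rose, -0.50 among genes that fell and 0.01 over all 8072. Changes of 2-fold or more were fewer: 25 called genes (0.31%) were higher and 73 (0.904%) lower. At 1.5-fold or more 252 were higher and 489 lower. Quantile normalisation gives each array the same distribution of values, so an overall loss or gain of RNA on capture is not visible. The balance of directions rests on it. Genes that rose made up 50.4% of calls, against 35.2% with median scaling and 9.24% without normalisation between arrays, where the median of all genes was -0.11.

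The genes most raised by capture were of unlike kinds. Mid1, a ubiquitin ligase bound to microtubules, had levels of 8.16, 7.79, 6.60 and 7.78 on the Basal-ARP arrays, against 4.67, 4.89, 4.59 and 5.25 on the Basal-total arrays. It was detected on every Basal-ARP array and no Basal-total array, which makes it at least 4.1-fold higher (adjusted p = 3e-07). Among the groups, only Basal-ARP had it detected on every array, so the gene entered the test through its high group. Its p-value is not independent of that selection. The replicate 3 array was the lowest of the Basal-ARP arrays for Mid1 and still lay above every Basal-total value. Slc1a5, a transporter of glutamine and other neutral amino acids, had levels of 6.91, 7.05, 7.06 and 7.02 in Basal-ARP against 5.04, 5.21, 4.93 and 5.06 in Basal-total, and was at least 2.76-fold higher (adjusted p = 2.6e-07). The groups were far apart and the 4 captured values close together. Slc1a5 also entered the test through Basal-ARP alone, so the same limit holds for its p-value. Sox9, a transcription factor of neural crest and glial lineages, had 8.0, 7.75, 7.88 and 7.81 in Basal-ARP against 5.85, 6.13, 6.34 and 5.65 in Basal-total, a change of 1.87 ± 0.15 (adjusted p = 2.5e-07). Atxn3, a deubiquitinase with a polyglutamine tract, had 8.41, 8.14, 8.42 and 8.27 in Basal-ARP against 7.04, 7.10, 6.90 and 7.01 in Basal-total, a change of 1.29 ± 0.08 (adjusted p = 3.6e-08). Neither gene had overlapping groups. The other Atxn3 probes had changes of 1.37 and -0.49.

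**Figure D1:**
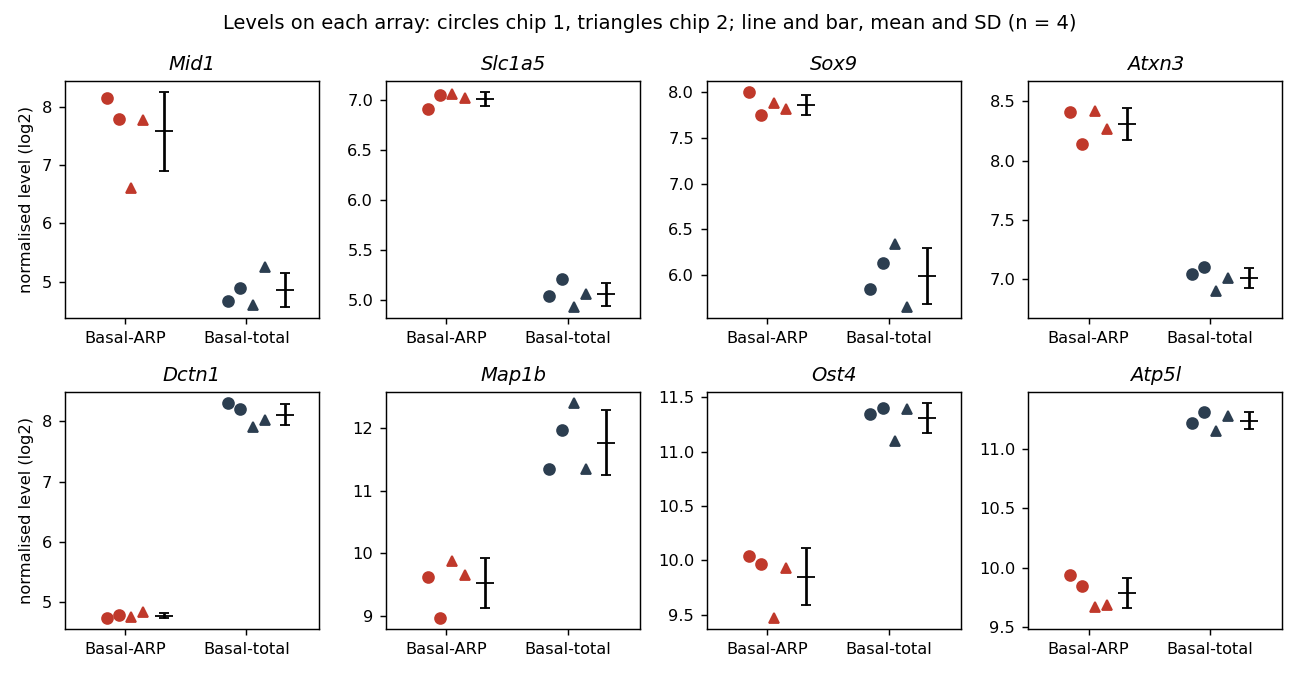
Normalised log2 level of 4 genes raised and 4 lowered on capture, 1 point per array, with Basal-ARP in red on the left and Basal-total in dark blue on the right; circles are chip 1 and triangles chip 2, and the line with bars is the mean and SD (n = 4). In none of the 8 genes do the groups overlap, and Mid1 on Basal-ARP replicate 3 lies at 6.60, below the other captured values of that gene.

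Ccdc144b, a coiled-coil gene, rose by 2.31 ± 0.21, was detected on 1 Basal-total array, and entered the test through Basal-ARP alone. Plpbp, whose product binds pyridoxal phosphate, rose by 1.46 ± 0.12, with changes of 1.69 and 0.35 on its other probes. Dync1li1, a light intermediate chain of cytoplasmic dynein, rose by 1.30 ± 0.12, Cyp20a1, a cytochrome P450 of poorly known substrate, by 1.26 ± 0.17, and Mzt1, a small protein that binds the gamma-tubulin complex, by 1.22 ± 0.19. Cacng3, an auxiliary subunit of AMPA receptors, rose by 1.20 ± 0.13 and Plp2, a membrane proteolipid, by 1.18 ± 0.12. The histone-reading protein gene Spin1 rose by 1.18 ± 0.18 on its brightest probe, but a second probe had a change of 0.02. The probes are close in mean level: without Basal-ARP replicate 4 the second became the brighter one, at 0.16 ± 0.13, while the first still rose by 1.08 ± 0.19. Heatr3 rose by 1.16 ± 0.09, with 1.04 on its second probe, and the integrin beta 1 gene Itgb1 rose by 1.14 ± 0.12, with -0.24 on its second. All of these genes lay higher on all 4 Basal-ARP arrays than on any Basal-total array.

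In 28 of 8072 genes the brightest probe was detected on all 4 Basal-ARP arrays and no Basal-total array, and in 18 of 8072 the reverse. Beside Mid1 and Slc1a5, the first kind included the pseudogene Pisd-ps2 (at least 1.34-fold higher). It also included Lrrn4cl, Zyg11b, a substrate receptor of a cullin ubiquitin ligase, Usp48, a deubiquitinase, Slc27a1, a fatty acid transport protein, and Vps39, a subunit of the complex that tethers membranes to lysosomes. The second kind held Dctn1 and Mia3, an organiser of collagen export from the endoplasmic reticulum (at least 1.62-fold lower). It also held Ccnk, the cyclin partner of the transcriptional kinases CDK12 and CDK13 (at least 1.46-fold lower), and Cacng7, another auxiliary subunit of AMPA receptors (at least 1.66-fold lower). Gatad2b, a subunit of the NuRD complex, the signalling adaptor Traf2, the Ras pathway inhibitor Spred2 and the kinase Prkg1 were also detected in Basal-total alone. These probes are dim, and the bounds say only how far the brighter group lay above the detection limit. Pisd-ps2 entered the test through Basal-ARP alone and Mia3 through Basal-total alone, so the limit given for Mid1 holds for both. It holds too for any other gene of either kind that passed through 1 group alone.

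Dctn1, which encodes the large p150 subunit of dynactin, was the most lowered gene. Its levels were 4.74, 4.78, 4.75 and 4.83 on the Basal-ARP arrays against 8.31, 8.20, 7.91 and 8.02 on the Basal-total arrays. The Basal-ARP values are those of an undetected probe, and the gene was at least 6.3-fold lower (adjusted p = 1.6e-13). Map1b, a microtubule-binding protein of growing axons, had 9.62, 8.97, 9.88 and 9.65 in Basal-ARP against 11.34, 11.97, 12.40 and 11.34 in Basal-total and fell by 2.23 ± 0.27 on the log2 scale (adjusted p = 1.2e-05). Its 3 other probes had changes of -0.66, -0.41 and -1.33, so the loss was not of the same size along the gene's probes. Cplx2, a complexin that regulates synaptic vesicle fusion, had 6.11, 5.84, 5.86 and 6.14 in Basal-ARP against 7.71, 8.33, 7.83 and 7.52 in Basal-total and fell by 1.86 ± 0.19 (adjusted p = 1.8e-06). Groups did not overlap for either gene.

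Several of the other most lowered genes encode very small proteins. Sizes named here and below describe single proteins and are given for some genes only. Protein length was not analysed, and its relation to the change was not tested. The most lowered gene, Dctn1, encodes a large subunit. Ost4, a tiny membrane subunit of oligosaccharyltransferase, had 10.04, 9.97, 9.47 and 9.93 in Basal-ARP against 11.35, 11.40, 11.10 and 11.39 in Basal-total and fell by 1.46 ± 0.12 (adjusted p = 3e-07). Atp5l, subunit g of ATP synthase, had 9.94, 9.85, 9.67 and 9.69 in Basal-ARP against 11.22, 11.31, 11.15 and 11.28 in Basal-total and fell by 1.45 ± 0.10 (adjusted p = 3.6e-08). Both are strongly expressed genes, and no captured value came near an uncaptured one. Cox7a2, a small subunit of cytochrome c oxidase, fell by 1.49 ± 0.13. Tmem256, a small membrane protein, fell by 1.68 ± 0.17. Genes of other kinds were among the most lowered too. Unc5b, a netrin receptor, was 2.83-fold lower. The sulfurtransferase gene Mpst, detected on 1 Basal-ARP array, fell by 1.51 ± 0.24 on the log2 scale. Cdkn2a, which encodes the cell cycle inhibitors INK4a and ARF, fell by 1.47 ± 0.14, with -1.19 on its second probe. The tetraspanin gene Tspan18 fell by 1.38 ± 0.16, but a second probe had a change of -0.05.

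All 3 tested members of the noncoding RNA list fell, against 16.1% of all genes. Xist, the RNA that coats the inactive X chromosome, had 6.86, 7.11, 8.84 and 7.30 in Basal-ARP against 8.95, 8.96, 9.56 and 9.05 in Basal-total, a fall of 1.61 ± 0.30 (adjusted p = 0.00068) with -0.78 on a second probe. Replicate 3 stood high in both groups for Xist, and its captured value lay close to the uncaptured ones of the other replicates. Rnu6, the U6 spliceosomal RNA, had 11.12, 11.02, 10.73 and 10.83 in Basal-ARP against 12.51, 12.40, 12.31 and 12.19 in Basal-total, a fall of 1.43 ± 0.11 (adjusted p = 2.4e-07). The small nucleolar RNA gene Snora65 fell by 0.35 ± 0.09 (adjusted p = 0.0076). U6 and snoRNAs lack the poly(A) tail that primes amplification for these arrays, and what the probes read in their case was not tested.

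Genes of the respiratory chain and of ATP synthase fell more often than they rose, in each of 3 lists. The electron transport chain pumps protons across the inner mitochondrial membrane, and ATP synthase uses their return to make ATP. Of 33 tested nuclear genes of complex I, 0 rose, 23 fell and 10 were not called, with a median change of -0.48, against 0.01 over all genes. Among complexes II to IV, 1 of 23 rose, 12 fell and 10 were not called (median -0.41). Of 15 ATP synthase genes, 0 rose, 6 fell and 9 were not called (median -0.24). Genes called either way made up 69.7%, 56.5% and 40% of these 3 lists, against 32.4% of all genes. The gene in these 3 lists that rose was Cyc1, cytochrome c1 (0.32 ± 0.10, adjusted p = 0.028), named here after its value was seen. It was not called without Basal-ARP replicate 1 or 2 or Basal-total replicate 1 or 3 (0.26 to 0.31). In complex I the accessory subunit gene Ndufa2 fell by 1.14 ± 0.07, Ndufa5 had -1.07 ± 0.09, Ndufs4, a gene mutated in Leigh syndrome, -1.0 ± 0.08 and Ndufb8 -0.91 ± 0.09. In cytochrome c oxidase Cox7b fell by 1.26 ± 0.18. In ATP synthase Atp5j2 fell by 0.51 ± 0.08, Atp5mpl by 0.62 ± 0.11 and Atp5e by 0.88 ± 0.17. Complex I medians in the 4 same-numbered pairs of arrays were -0.45, -0.49, -0.66 and -0.57, and those of complexes II to IV were -0.23, -0.39, -0.57 and -0.38.

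**Figure D2:**
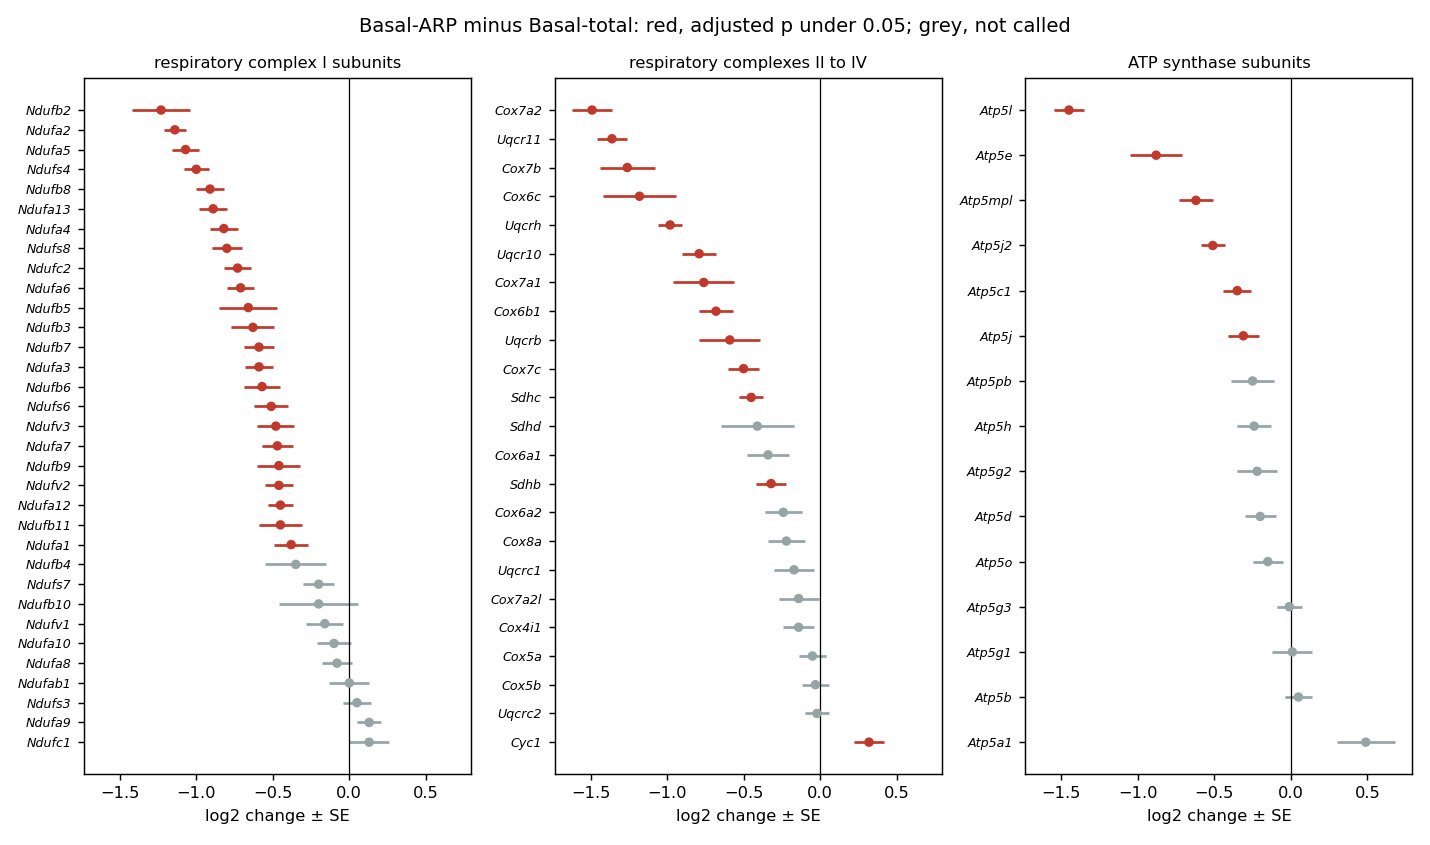
Change of each tested nuclear gene of complex I, complexes II to IV and ATP synthase (log2, Basal-ARP minus Basal-total, point with SE from limma, n = 4 arrays per group); red points were called at an adjusted p under 0.05 and grey ones were not. Of 33, 23 and 15 genes, 23, 12 and 6 fell, and Cyc1 is the 1 gene that rose.

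Complex III gives examples with high and even levels. Uqcr11 had 10.92, 10.62, 10.59 and 10.72 in Basal-ARP against 12.22, 12.04, 11.92 and 12.10 in Basal-total, a fall of 1.36 ± 0.10 (adjusted p = 9.3e-08). Uqcrh, the hinge protein, had 11.75, 11.60, 11.64 and 11.68 in Basal-ARP against 12.64, 12.72, 12.56 and 12.68 in Basal-total, a fall of 0.98 ± 0.08 (adjusted p = 2.8e-07). Both genes showed a narrow spread within each group and no overlap. Such genes often carry sites for ETS family factors close to their start. The 120 bases before the start of Uqcr11, Uqcrh and the mitochondrial ribosomal gene Mrpl52, which fell by 1.10 ± 0.16, are shown because these lowered genes share that motif. They come from RefSeq on GRCm38.p6, at chr10:80406822-80406941 (minus strand), chr4:116075071-116075190 (minus strand) and chr14:54426789-54426908 (plus strand), with the motif CCGGAAG, read on either strand, in capitals.
Uqcr11: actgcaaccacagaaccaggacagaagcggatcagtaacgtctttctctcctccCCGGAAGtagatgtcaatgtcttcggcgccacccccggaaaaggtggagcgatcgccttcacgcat
Uqcrh: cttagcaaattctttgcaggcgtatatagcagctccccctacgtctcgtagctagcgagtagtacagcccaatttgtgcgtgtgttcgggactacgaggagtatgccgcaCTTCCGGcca
Mrpl52: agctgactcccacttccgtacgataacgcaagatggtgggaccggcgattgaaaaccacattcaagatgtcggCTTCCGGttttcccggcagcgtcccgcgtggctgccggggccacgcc
The motif lay 66 bases before the start in Uqcr11, 10 in Uqcrh and 47 in Mrpl52. In a window of 250 bases before to 50 after the start, CCGGAAG on either strand was found in 20.9% of 998 promoters of genes that rose, 22.6% of 995 of genes that fell and 20.5% of 6143 of all tested genes with a promoter in the table. It was found in 32.6% of 172 promoters of respiratory chain, ATP synthase and ribosomal genes, and in 8.86% of all 32851 in the table. The GC box GGGCGG was found in 68.7%, 64.0% and 67.3% of the raised, lowered and tested promoters, and CCAAT in 41.9%, 38.4% and 39.9% of the same 3 sets. The motif of NRF1, a factor of respiratory genes, was rarer, with 31 of 998 raised promoters (3.11%), 18 of 995 lowered (1.81%) and 139 of 6143 tested (2.26%). Among the 172 promoters of respiratory chain, ATP synthase and ribosomal genes, the GC box was found in 50.6%, CCAAT in 37.2% and the NRF1 motif in 3.49%. A match describes letters, not a bound site.

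Ribosomal protein genes of both kinds lay low among captured RNA, in part. Of 70 genes of the mitochondrial ribosome, which makes the proteins encoded by mitochondrial DNA, 9 rose, 34 fell and 27 were not called (median -0.27). Mrps18c fell by 1.30 ± 0.12, Mrpl33 by 1.20 ± 0.11, Mrpl46 by 0.95 ± 0.08 and Mrps33 by 0.79 ± 0.09. Of 58 genes of the cytosolic ribosome, 3 rose, 20 fell and 35 were not called (median -0.22). Calls made up 61.4% of the mitochondrial list and 39.7% of the cytosolic list, against 32.4% of all genes. Rpl36a fell by 1.24 ± 0.14, Rpl34 by 0.91 ± 0.10 and Rpl39 by 0.77 ± 0.10. Rps15a of the small subunit rose by 0.67 ± 0.09. Ribosomal protein genes have many processed copies in the genome, and probes could be shared with them.

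Replication-dependent histone genes, which are short, intronless and made in S phase, were low as well. Of 34 tested, 2 rose, 23 fell and 9 were not called (median -0.51). The share called was 73.5%, against 32.4% of all genes. H3c6 fell by 0.74 ± 0.14, H3c1 by 0.66 ± 0.13 and H4c12 by 0.66 ± 0.13. H4c14 was detected on 4 Basal-total arrays and 0 Basal-ARP arrays and was at least 1.36-fold lower. The genes that rose, named after their values were seen, were H3c13 (0.46 ± 0.12) and H2bc18 (0.51 ± 0.16). The H2bc18 call was lost without Basal-total replicate 2 (0.48) or 4 (0.35). Histone genes are near-identical copies, so 1 probe can read several of them. Their messages end in a stem-loop in place of a poly(A) tail, and whether amplification represents them like other messages was not tested.

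Genes for proteins of the spliceosome core were lowered as well. Of 21 Sm, LSm and U1 snRNP protein genes, which build the rings and cores of spliceosomal particles, 1 rose, 11 fell and 9 were not called (median -0.53). Snrpg fell by 1.17 ± 0.09, Snrpd1 by 0.88 ± 0.12, Lsm3 by 0.79 ± 0.11 and Snrpn by 0.55 ± 0.08. Of 17 RNA polymerase subunit genes 2 rose and 8 fell (median -0.30). Polr2i fell by 1.00 ± 0.13, while Polr3b, a subunit of polymerase III, rose by 0.73 ± 0.10 and Polr2e by 0.63 ± 0.09. Of 24 mediator genes 1 rose and 5 fell (median -0.08), with Med11 and Med31 falling by 0.63 ± 0.09 and 0.65 ± 0.12. Called genes were 57.1% of the Sm list, 58.8% of the polymerase list and 25% of the mediator list, against 32.4% of all genes.

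Genes of protein degradation, import and secretion held members of both directions. Of 40 proteasome genes 2 rose, 17 fell and 21 were not called (median -0.24). Psmb10, an immunoproteasome subunit, fell by 0.83 ± 0.10, Psmb1, a core subunit, by 0.80 ± 0.09 and Psmd10, an assembly chaperone, by 0.57 ± 0.07. Of 17 mitochondrial import genes 1 rose and 5 fell (median -0.19). Timm8b, a chaperone of the intermembrane space, fell by 1.27 ± 0.11, Timm10 by 0.82 ± 0.16 and Tomm7 by 0.69 ± 0.10. Tomm70a, a receptor for incoming precursors, rose by 1.10 ± 0.13. Of 30 genes of the translocon, signal peptidase and oligosaccharyltransferase 4 rose and 7 fell (median 0.02). Besides Ost4, Sec61b fell by 0.89 ± 0.10, Srp14 by 0.85 ± 0.09 and Ssr4 by 0.81 ± 0.12. Of 17 vacuolar ATPase genes 2 rose and 4 fell (median -0.07), including Atp6v0e (-1.04 ± 0.15) and Atp6v0a1 (-0.84 ± 0.08). A second Atp6v0a1 probe, which was dimmer, had -0.10. The share called was 47.5% for the proteasome, 35.3% for import, 36.7% for the translocon list and 35.3% for the vacuolar ATPase. Over all genes it was 32.4%.

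**Figure D3:**
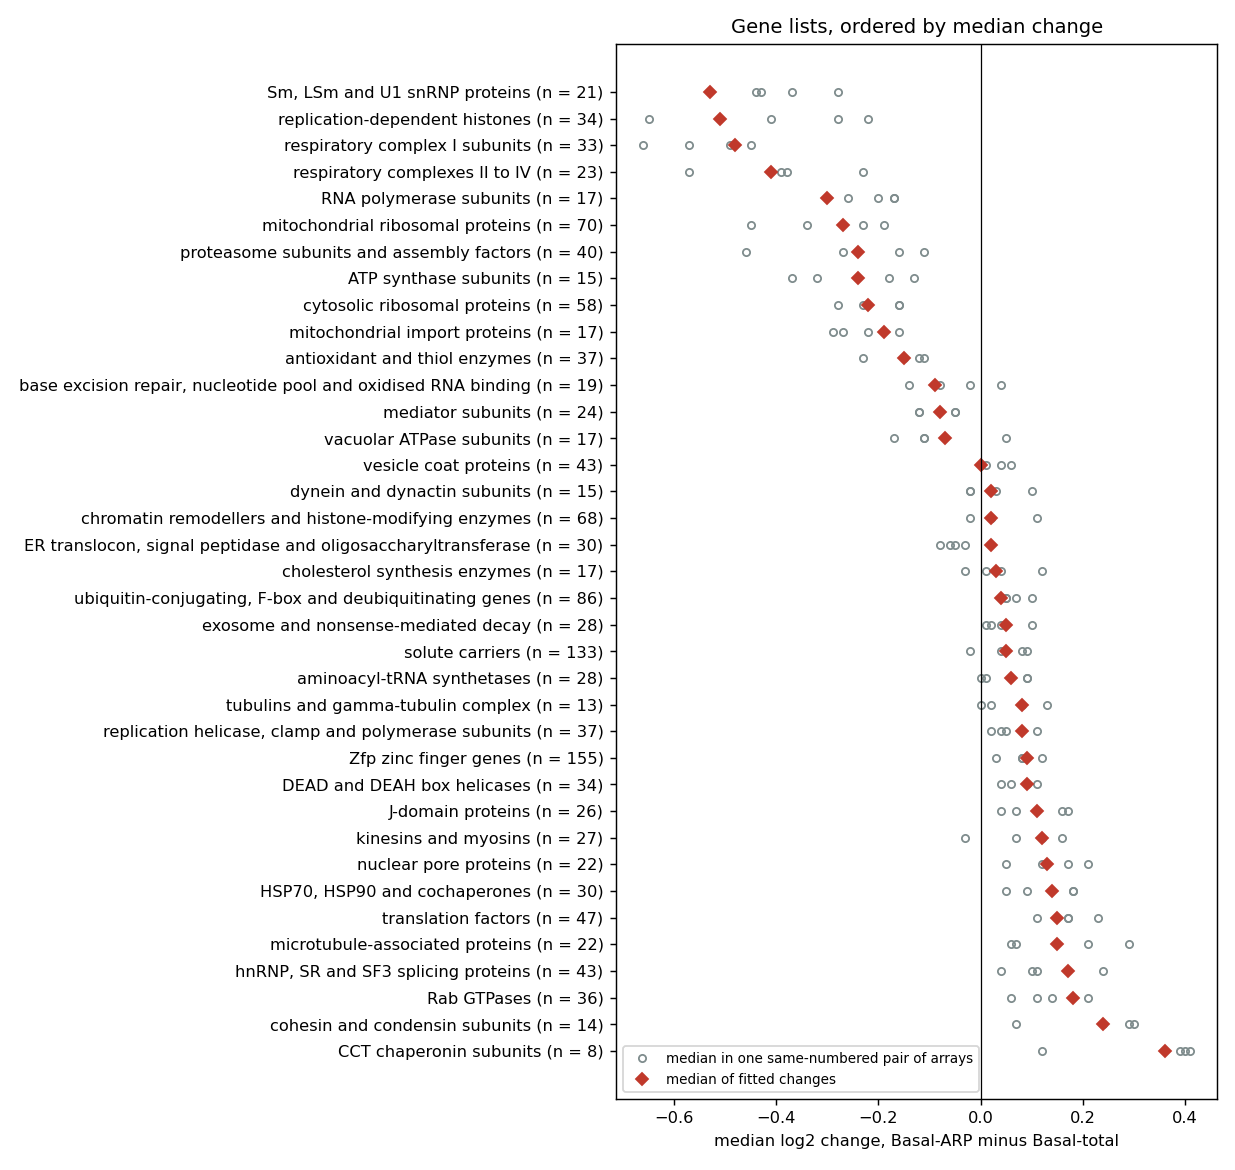
Median log2 change (Basal-ARP minus Basal-total) of each gene list with more than 3 tested members except the neuronal identity genes, most negative at the top. Red diamonds are medians of the fitted changes and open circles the medians in the 4 same-numbered pairs of arrays. Sm and LSm genes (-0.53), histones (-0.51) and complex I (-0.48) lie lowest and the CCT chaperonin (0.36) highest.

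Medians on the raised side reached 0.36, less far from 0 than the lowest ones. Of 8 genes of the CCT chaperonin, the ring that folds actin and tubulin, 2 rose and 0 fell (median 0.36), a share of 25% called against 32.4% of all genes. Cct6a rose by 0.57 ± 0.08 and Cct3 by 0.34 ± 0.08. All 8 had a positive change. Of 14 cohesin and condensin genes, which hold and fold chromosomes, 5 rose and 0 fell (median 0.24), with Stag1 at 0.66 ± 0.09 and Ncapg2 at 0.42 ± 0.07. Of 36 Rab GTPase genes, switches of vesicle traffic, 10 rose and 2 fell (median 0.18), including Rab21 (0.88 ± 0.13), Rab23 (0.60 ± 0.13) and Rab11a (0.42 ± 0.08). Of 30 HSP70, HSP90 and cochaperone genes 7 rose and 0 fell (median 0.14), among them Ahsa1 (0.45 ± 0.11), an activator of HSP90. The share called in the HSP70 and HSP90 list, 23.3%, was also below that of all genes. That of cohesin and condensin genes was 35.7% and that of Rab genes 33.3%, both near that of all genes.

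Translation and splicing factor genes leaned upward. Of 47 translation factor genes 13 rose, 5 fell and 29 were not called (median 0.15). Etf1, the release factor that reads stop codons, rose by 0.87 ± 0.10, Eif3b by 0.60 ± 0.10, Eif3f by 0.47 ± 0.08 and Eif3l by 0.41 ± 0.08. Of 43 hnRNP, SR and SF3 splicing genes 13 rose, 3 fell and 27 were not called (median 0.17). Hnrnpf rose by 0.76 ± 0.12, Hnrnpk by 0.61 ± 0.13 and Srsf1 by 0.60 ± 0.10, while Sf3b5 fell by 0.59 ± 0.12. Of 34 DEAD and DEAH box helicase genes 5 rose and 2 fell (median 0.09), with Dhx15 at 0.47 ± 0.09 and the decay-linked helicase gene Ddx6 at -1.16 ± 0.25. Of 28 genes of the exosome and nonsense-mediated decay 5 rose and 3 fell (median 0.05), with the deadenylase subunit gene Cnot3 at -0.71 ± 0.11. Of 28 aminoacyl-tRNA synthetase genes 3 rose and 4 fell (median 0.06), and the 2 chains of 1 enzyme went apart, with Farsb at 0.56 ± 0.08 and Farsa at -0.45 ± 0.12. Of 26 J-domain protein genes 5 rose and 4 fell (median 0.11), with Dnaja2 at 0.61 ± 0.10 and the mitochondrial import motor gene Dnajc19 at -0.80 ± 0.09. Of 22 nuclear pore genes 6 rose and 1 fell (median 0.13), with Nupl1 at 0.75 ± 0.09 and Nup62 at 0.51 ± 0.10. Second probes had changes of -0.02 for Eif3b, 0.12 for Eif3l, 0.24 for Hnrnpk and 0.30 for Srsf1. Those of Dhx15, Ddx6, Dnaja2 and Dnajc19 had 0.28, -0.56, 0.44 and 0.17. The other Nupl1 probes had 0.33 and 0.96, and that of Farsb 0.68. Called genes were 38.3% of translation factors, 37.2% of splicing genes, 20.6% of helicases and 28.6% of the decay list. They were 25% of synthetases, 34.6% of J-domain genes and 31.8% of nuclear pore genes, against 32.4% of all genes.

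Genes of the cytoskeleton and of motors did not move as a block. Of 15 dynein and dynactin genes 4 rose and 3 fell (median 0.02), and this list held both the most lowered gene, Dctn1, and the raised Dync1li1. Dync1h1, the heavy chain, fell by 0.85 ± 0.16 and the roadblock light chain gene Dynlrb1 by 0.70 ± 0.08. Of 22 microtubule-associated protein genes 7 rose and 4 fell (median 0.15). Tpx2, a spindle assembly factor, rose by 0.62 ± 0.14 and Mapre1, which tracks growing plus ends, by 0.42 ± 0.09, while Stmn3, a neuronal stathmin, fell by 0.77 ± 0.14. Of 27 kinesin and myosin genes 4 rose and 3 fell (median 0.12), with the mitotic kinesin gene Kif11 at 0.47 ± 0.10. Of 13 tubulin and gamma-tubulin complex genes 2 rose and 0 fell (median 0.08), Tubb2b at 0.30 ± 0.08 and Tubg1 at 0.39 ± 0.11. Of 17 tested identity genes of neurons and neuroblastoma 3 rose and 2 fell (median -0.04): beside Map1b, the RNA-binding protein gene Elavl2 rose by 0.71 ± 0.12, its relative Elavl4 by 0.70 ± 0.20 and Gata3 by 0.54 ± 0.10, and the granin gene Chgb, at -0.39 ± 0.13, was not called without Basal-ARP replicate 1 or 4 or Basal-total replicate 1 or 2 (-0.37 to -0.28). Of the 3 tested markers of other cell types, the myelin gene Mbp was called (0.24 ± 0.09) and the list had a median of 0.13, but Mbp was not called when any of 7 of the 8 arrays was left out (0.20 to 0.27). The share called was 46.7% for dynein and dynactin, 50% for microtubule-associated proteins, 25.9% for kinesins and myosins and 15.4% for tubulins. It was 29.4% for the neuronal identity genes, against 32.4% of all genes. The other Tubb2b probes had changes of 0.61, 0.15, 0.14 and -0.29, and those of Elavl4 0.63 and 0.11.

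Chromatin, replication and gene regulation gave mixed lists. Of 68 chromatin remodelling and histone-modifying genes 12 rose and 8 fell (median 0.02), with the NuRD subunit gene Mta2 at 0.94 ± 0.09, the acetyltransferase gene Kat2b at 0.94 ± 0.13 and the methyltransferase gene Setd1a at -0.71 ± 0.12. Of 37 replication genes 9 rose and 5 fell (median 0.08), with Rpa3, a subunit of replication protein A, at -0.96 ± 0.09 and the origin recognition gene Orc2 at 0.52 ± 0.10. Of 155 Zfp zinc finger genes 26 rose and 12 fell (median 0.09). Zfp420, Zfp595, Zfp60 and Zfp597 rose by 0.62 to 0.71. Of 86 ubiquitin-conjugating, F-box and deubiquitinating genes 20 rose and 5 fell (median 0.04), with Ube2j1 at 0.81 ± 0.15 and Fbxw7, a substrate receptor for cyclin E and MYC, at -1.19 ± 0.12. Called genes were 29.4% of the chromatin list, 37.8% of replication genes, 24.5% of Zfp genes and 29.1% of the ubiquitin list. Over all genes the share was 32.4%.

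Metabolic and redox genes followed no common direction, with 1 lean downward. Of 37 antioxidant and thiol enzyme genes 3 rose, 11 fell and 23 were not called (median -0.15). Gpx4, which reduces lipid peroxides, fell by 0.95 ± 0.15, the glutathione transferase gene Gstm5 by 0.78 ± 0.11 and Prdx4 by 0.47 ± 0.09, while Gstm6 rose by 0.73 ± 0.12. Of 19 genes of base excision repair, nucleotide pool cleaning and oxidised RNA binding 3 rose and 3 fell (median -0.09). The uracil glycosylase gene Smug1 rose by 0.95 ± 0.09 and Parp1 by 0.64 ± 0.09. Nudt1, whose enzyme clears oxidised purine nucleotides, fell by 0.74 ± 0.12 and Tdp1 by 0.63 ± 0.13. Of 17 cholesterol synthesis genes 4 rose and 2 fell (median 0.03), with Hmgcs1 at 0.41 ± 0.09 and Pmvk at -0.73 ± 0.10. Of 133 solute carrier genes 25 rose and 9 fell (median 0.05), with the mitochondrial carrier gene Slc25a36 at 0.92 ± 0.15. Of 43 vesicle coat genes 6 rose and 7 fell (median 0.00), with the AP-3 genes Ap3b1 and Ap3m1 at 0.77 ± 0.10 and 0.73 ± 0.10. The share called was 37.8% for antioxidant genes, 31.6% for the repair list and 35.3% for cholesterol synthesis. It was 25.6% for solute carriers and 30.2% for coat genes, against 32.4% of all genes. Ddit3, a factor of the unfolded protein response, fell by 0.53 ± 0.16 (adjusted p = 0.018), a call lost without Basal-ARP replicate 3 (-0.46) or Basal-total replicate 1 (-0.49). Hmox1 (0.13 ± 0.10) and Gapdh (0.09 ± 0.08) were not called. Actb was not called on its brightest probe (0.06 ± 0.08), but another bright probe averaged 10.94 in Basal-ARP against 12.71 in Basal-total, a fall of 1.77 ± 0.36 (adjusted p = 0.0014 in the fit over all probes). The 3 remaining Actb probes had changes of 0.34, -0.81 and -0.95 and were not called.

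Many of the lowered lists consist of short genes, so the change was set against genomic span, the distance between the ends of a gene in the RefSeq table. In 5 equal groups of 7462 genes ordered by span, the median change was -0.13, -0.03, 0.05, 0.10 and 0.08 (median spans 4.35, 11.3, 21.5, 39.7 and 101 kb). In the shortest group 116 of 1492 genes rose (7.77%) and 442 fell (29.6%). In the longest group 310 of 1493 rose (20.8%) and 160 fell (10.7%). Spearman's rho was 0.242 across genes, which are not independent replicates. The difference between the longest and shortest groups was 0.22, and it was 0.03 when dim probes were not filtered out. As a score per array, the difference between these 2 groups of genes was -0.04, 0.08, 0.33 and 0.08 in Basal-ARP against -0.15, -0.12, -0.01 and -0.16 in Basal-total, relative to the mean over these arrays. Basal-ARP replicate 1 lay below Basal-total replicate 3, so the groups overlapped, and the exact two-sided permutation p was 0.057, where 0.029 is the smallest that 4 against 4 arrays can give. Replicate 3 was highest in both groups. Within same-numbered pairs the score differed by 0.12, 0.20, 0.34 and 0.24, positive in 4 of 4, and with 4 pairs an exact test of signs cannot give a p under 0.125. Span counts introns, and the length of the processed messages was not analysed here.

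**Figure D4:**
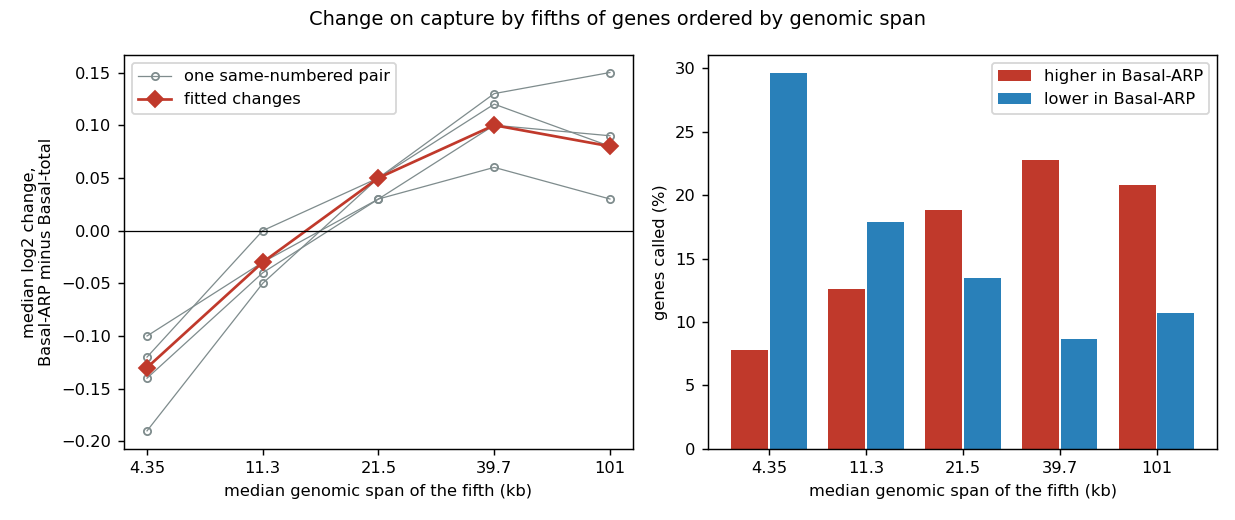
Change on capture in 5 equal groups of genes by genomic span (median span of each group in kb on the x axis). Left, median log2 change of the fitted values (red) and in the 4 same-numbered pairs (grey); right, percent of genes called higher (red) and lower (blue) in Basal-ARP, with 29.6% of the shortest group lower and 10.7% of the longest.

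Short genes outside these lists were lowered more often than raised too. In the shortest group outside the complex I, complex II to IV, ATP synthase, ribosomal, histone, proteasome and Sm lists, 1311 genes had a median of -0.11, with 106 raised and 348 lowered. Inside it, list members were lower than that in most lists: 33 histone genes had a median of -0.54, 15 complex I genes -0.59 and 52 cytosolic ribosomal genes -0.23. The 12 translation factor genes there had a median of -0.12 and the 12 hnRNP, SR and SF3 genes 0.14. Promoter base composition was related less steeply to the change. The 5 equal groups of 6143 genes by GC content of the promoter had medians of -0.03, -0.03, 0.01, 0.04 and 0.05 (rho 0.0861 across genes), and the array score was higher in all 4 Basal-ARP arrays than in any Basal-total array (exact permutation p = 0.029, the smallest this design allows). Level in Ox-total RNA, which shares no array with the comparison, had a rho of -0.0378 with the change across genes, and its array score had an exact permutation p of 0.057. Over the 3 gene properties so tested, the Benjamini-Hochberg adjusted p was 0.057 for each.

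Probes of 1 gene did not always move the same way. Values of other probes are given above for some genes only. Of 434 genes with 2 or more called probes, 37 had probes called in opposite directions. Hdlbp, a large RNA-binding protein with many KH domains, had 0.30 on its brightest probe and -2.17 on another. Slc16a6, a monocarboxylate transporter, had 0.53, 0.27 and -1.66 on its 3 probes, and Nup155, a nuclear pore scaffold protein, 0.78, 0.30 and -1.21. Kansl3, a subunit of a histone acetyltransferase complex, had 0.29 and -1.33, and the Golgi matrix gene Golga2 0.45, 0.32, 0.00 and -1.07. In these 5 genes the brightest probe was above 0 and the strongly lowered probe was a dimmer one. For them the direction of the gene depends on the probe: with probes averaged, the change was -0.93 for Hdlbp, -0.29 for Slc16a6, -0.05 for Nup155, -0.52 for Kansl3 and -0.08 for Golga2. The rise of Slc16a6 was not called without Basal-ARP replicate 1, 3 or 4 or Basal-total replicate 1, 2 or 4 (0.39 to 0.55), and that of Kansl3 not without Basal-ARP replicate 1 or 2 or Basal-total replicate 4 (0.25 to 0.26). Where in the transcripts these probes lie was not analysed here.

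Capture after peroxide, which used other arrays of the same 2 chips, gave a similar direction for most called genes. Captured and total RNA lay at different chip positions in both comparisons, so effects of position and capture cannot be told apart in either. Of the genes that rose in Basal-ARP, 1158 of 1321 (87.7%) had a positive change in Ox-ARP against Ox-total. Of those that fell, 1133 of 1298 (87.3%) had a negative one. In 5 equal groups of all 8072 genes by level in Ox-total, the median Ox change was 0.01 to 0.04, close to 0. In Ox-ARP against Ox-total 2094 of 8072 genes were called (25.9%). Genes called the same way in both numbered 1200, which is 45.8% of the calls without peroxide and 57.3% of the calls with it. Of the genes changed 2-fold or more in Basal-ARP, 21 of 25 raised and 65 of 73 lowered were called the same way with peroxide. Sox9 had 1.87 ± 0.15 without peroxide and 1.83 ± 0.15 with it. Dctn1 was detected on no captured array of either kind, and was at least 6.3-fold lower without peroxide and at least 6.35-fold lower with it. Median changes of complex I were -0.48 without and -0.47 with peroxide, and those of histones -0.51 and -0.54.

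The difference between the 2 capture effects was tested as an interaction, Basal change minus Ox change, and 125 of 8072 genes were called (1.55%; 69 positive, 56 negative; 1440 at an unadjusted p under 0.05). With replicate number as a block the count was 687. It was 71 without Basal-ARP replicate 2, and 59 and 73 without Basal-total replicates 1 and 4. Of the 125, 57 genes were called in the Basal capture and not the Ox capture, 31 in the Ox capture alone, 11 the same way in both and 26 in opposite directions. Mid1 was called in the interaction (adjusted p = 0.00055). Its Ox levels were 4.58, 4.50, 4.67 and 4.44 in Ox-ARP against 4.43, 4.50, 4.37 and 4.43 in Ox-total, so all 8 lay below its Basal-ARP values. None of the 8 was detected, which leaves the size of the difference unmeasured. Ccdc144b was similar: it was detected on no Ox array, with means of 5.01 in Ox-ARP against 5.26 in Ox-total, beside 7.42 in Basal-ARP against 5.10 in Basal-total (interaction adjusted p = 0.00048). Slc1a5 was detected on 3 Ox-ARP arrays and no Ox-total array, and was at least 1.14-fold higher with peroxide beside at least 2.76-fold without it (interaction adjusted p = 0.011). Mid1, Ccdc144b and Slc1a5 entered the test through Basal-ARP alone, so their interaction p-values are not independent of that selection.

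Rab1a, a GTPase of transport between endoplasmic reticulum and Golgi, turned round. It had 9.48, 9.59, 9.69 and 9.90 in Basal-ARP against 9.16, 9.25, 9.31 and 9.40 in Basal-total, a rise of 0.39 ± 0.13 (adjusted p = 0.032). With peroxide it had 7.76, 7.79, 7.98 and 7.23 in Ox-ARP against 9.10, 9.11, 9.13 and 8.95 in Ox-total, a fall of 1.38 ± 0.13. The interaction was 1.77 ± 0.19 (adjusted p = 0.00022). The Basal rise was not called without Basal-ARP replicate 3 or 4 or Basal-total replicate 1 or 2 (0.31 to 0.38). Lypla1, a depalmitoylating enzyme, had 0.39 ± 0.12 without peroxide and -0.91 ± 0.12 with it, a Basal rise that was not called without Basal-ARP replicate 3 or 4 or Basal-total replicate 1 (0.32 to 0.38). Melk, a mitotic kinase, had 0.54 ± 0.15 and -0.57 ± 0.15. The reverse pattern was seen in Pebp1, a Raf kinase inhibitor (-0.52 ± 0.13 and 0.38 ± 0.13), and in Bco1, a carotenoid-cleaving enzyme. Bco1 was detected on no Basal-ARP array and was at least 1.13-fold lower there than in Basal-total, while with peroxide it had a change of 0.51 ± 0.13. Metrn, a secreted factor of neurons and glia, fell without peroxide (-0.87 ± 0.12) and had 0.16 ± 0.12 with it. The U6 RNA gene Rnu6 fell in both, by 1.43 ± 0.11 without peroxide and by 2.21 ± 0.11 with it (interaction 0.78 ± 0.16, adjusted p = 0.020).

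**Figure D5:**
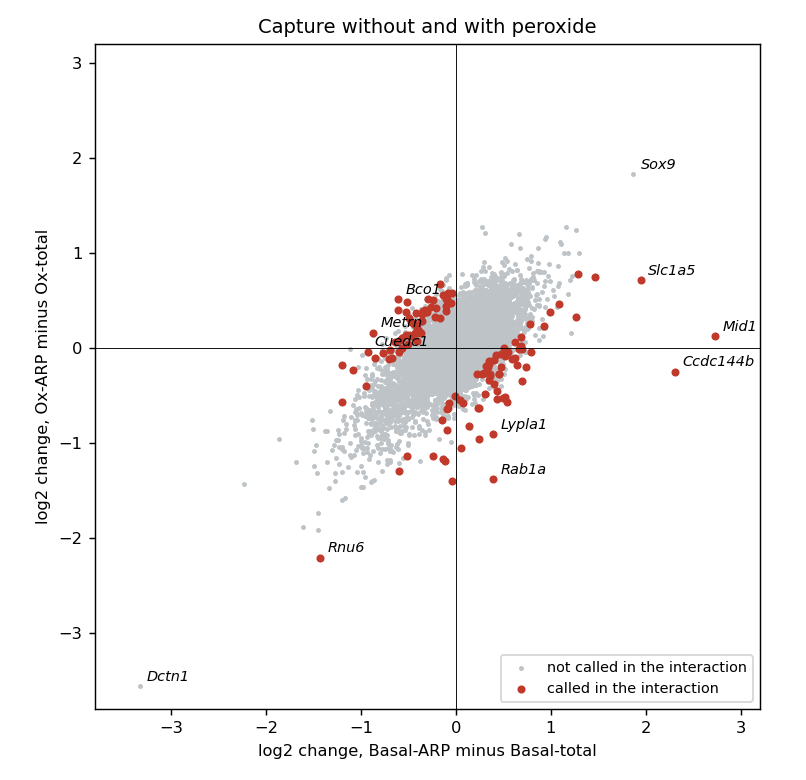
Log2 change on capture without peroxide (x, Basal-ARP minus Basal-total) against that with peroxide (y, Ox-ARP minus Ox-total), 1 point per gene for 8072 genes; red points are the 125 genes called in the interaction. Mid1 and Ccdc144b lie far right near y = 0, Rab1a and Lypla1 lie right of 0 and below it, and Dctn1 and Sox9 lie near the diagonal. Mid1, Ccdc144b and Dctn1 were undetected in 1 or more groups, so their places are only bounds or background values.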

How the data were processed

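Each of the 16 arrays measured 1 labelled RNA sample. The authors deposited a table of bead intensity on a linear scale with a detection p-value for each of 25697 probes, not normalised per the file headers, and the submitters' processing notes name GenomeStudio 2010.2. Their deposited table of processed intensity, with 28.2% of values below 0 and column medians from 12.3 to 16.3, served as an alternative once values under 1 had been set to 1 and logged. It is a linear function of the scanner signal, but its background method is not given in the sources used here.

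Scanner intensity was background corrected with detection p-values (nec, offset 16), quantile normalised and taken to log2 in limma 3.58.1 (R 4.3.3). The offset draws changes of dim probes towards 0. Tests used the 10794 probes detected (p under 0.01) on every array of 1 or more groups, and the probe with the highest mean stood for a gene (7464 named genes and 608 probes without a symbol). A probe that passed through 1 group alone was selected by its level there, and its p-values are not independent of that. Symbols came from the platform annotation, by which 23978 probes carried 1 symbol, 0 several and 1719 none. By gene identifier 23962 probes matched RefSeq on GRCm38.p6, which gave names, spans and promoter sequences. A mean per group was fitted over all 16 arrays with lmFit and eBayes (12 residual and 5.34 prior degrees of freedom). A call is a Benjamini-Hochberg adjusted p under 0.05 over 8072 genes, and the median standard error was 0.118. The number of arrays, 4 per group, limits the precision. The fit was also run on simulated data with set changes. The simulated arrays varied independently, without the correlation of same-numbered arrays described below, so that run does not cover such structure. "At least" bounds set the brighter group's mean against the lowest value among detected probes on each dim array or the probe's own value, whichever is higher.

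Named genes were the 15 most raised and 15 most lowered with the same sign in all 4 same-numbered pairs, the 4 list members with the smallest p, the 8 largest interactions each way, genes detected in 1 group only, genes with opposed probes, and reference genes and markers, with some left out for length. The members, the 40 lists and the tests were chosen with earlier results of these data known. Protein length, planned as a gene property, was not analysed here, and genomic span took its place. Replicate numbers come from the labels. Deviations of same-numbered Basal arrays from their group means correlated at 0.29 to 0.638 in every pair. Of 8 Basal arrays, 6 correlated best with the array of their own number in the other group. Values by pair and the replicate block used this pairing, and the main fit, with group means only, did not. Replicates 1 and 2 lay on 1 chip and 3 and 4 on another, and whether the chip gave these correlations was not tested.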

Additional observations from a re-analysis of the deposited data

Results flagged for a closer look

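For 18 genes named above, the change on capture without peroxide differed from that with peroxide (limma interaction, Basal change minus Ox change, adjusted p under 0.05). The interaction was positive for Mid1 (2.61), Ccdc144b (2.56), Rab1a (1.77), Lypla1 (1.30), Slc1a5 (1.24), Melk (1.11), Rnu6 (0.78), Zfp597 (0.73), Plpbp (0.71), Zfp595 (0.67), Zyg11b (0.60), Nup155 (0.52) and Atxn3 (0.51). It was negative for Bco1 (-1.11), Metrn (-1.03), Pebp1 (-0.91), Cacng7 (-0.85) and Mrpl46 (-0.56). Probes of Mid1, Ccdc144b, Slc1a5, Zyg11b, Bco1 and Cacng7 were detected on no array of 1 or more groups, so their values are differences of fitted levels partly at background and not measured sizes. The probes of Mid1, Ccdc144b and Slc1a5 entered the test through Basal-ARP alone. The zinc finger genes Zfp595 and Zfp597 rose without peroxide (0.66 and 0.62) and had -0.01 and -0.11 with it.

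In 15 of 330 groups of 4 arrays tested for the genes named above, 1 array stood apart from the other 3 by Dixon's criterion, and chance flags about 1 group in 20. Within Basal-total, replicate 3 was low for Mpst (5.87), Polr2i (9.06), Atp6v0e (11.55), Ddit3 (10.10) and Ost4 (11.10) and high for Xist (9.56). Within Basal-ARP, replicate 3 was low for Med11 (7.45) and Ncapg2 (8.19) and high for Nup62 (12.29). Replicate 4 was high for Ahsa1 in both groups (10.97 in Basal-ARP and 10.64 in Basal-total), low for H2bc18 in Basal-ARP (6.30) and low for Eif3l in Basal-total (12.91). Replicate 1 of Basal-ARP was low for Farsb (12.18) and Stag1 (8.94).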

How the results depend on the processing

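Counts moved more than the directions of the named genes. Most of these were picked for large changes or small p-values, so few changes of sign could arise among them. Signs of the other called genes were not checked. Of 165 named genes, 6 changed sign in 1 setting each while called in the main fit or in that setting. They were Hdlbp (-0.93), Slc16a6 (-0.29), Nup155 (-0.05), Kansl3 (-0.52) and Golga2 (-0.08) with probes averaged, and Tubb2b (-0.01) without normalisation between arrays. Sign changes of genes called in neither fit were not counted. Genes higher in Basal-ARP numbered 687 with median scaling, 78 without normalisation, 617 within chip 1 and 400 within chip 2. Genes lower numbered 766 without normalisation, 772 within chip 1 and 595 within chip 2. A chip alone holds 2 arrays per group. The interaction count was 5 without normalisation, 218 with the authors' values, 526 with chip as a block, 687 with the replicate block, 479 with array weights, and 3 within chip 1 and 0 within chip 2 (limma, 1015 and 896 at an unadjusted p under 0.05). With the replicate block 1791 genes were higher and 1704 lower. The cause of these shifts was not tested. Leaving out 1 Basal array gave 1043 to 1300 genes higher, 1080 to 1366 lower, 59 to 173 interactions and a span difference of 0.15 to 0.25. Without replicate 3 in both groups, chosen after seeing the data, the counts were 1154, 1211 and 123. The span difference was 0.03 without the filter on dim probes. Of 24 lists with medians at least 0.1 from that of all genes, 2 of 576 values lost the sign (kinesins and myosins 0.00, other cell markers -0.02, both without the filter). The planned fits on protein length were not run. Probes near background have only bounds on their change.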

Other observations

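Genes called in opposite directions in the Basal and the Ox capture numbered 27, and some of those outside the naming rule are given here after their values were seen. They were of unlike kinds. Among those that rose in Basal-ARP and fell in Ox-ARP, Ctps2, a CTP synthase, had 0.70 ± 0.13 without peroxide and -0.35 ± 0.13 with it, Son, a splicing cofactor, 0.36 ± 0.11 and -0.30 ± 0.11, and Cd47, a surface protein that inhibits phagocytosis, 0.22 ± 0.08 and -0.28 ± 0.08. Ccne2, a cyclin of S phase entry, had 0.52 ± 0.13 without peroxide and -0.52 ± 0.13 with it, Mcm7, a subunit of the replicative helicase, 0.43 ± 0.14 and -0.54 ± 0.14, and Nsl1, a kinetochore protein, 0.43 ± 0.11 and -0.45 ± 0.11. The Polycomb gene Bmi1 had 0.35 ± 0.12 and -0.34 ± 0.12. Among those that fell without and rose with peroxide were Hexa, a lysosomal hexosaminidase (-0.33 ± 0.10 and 0.40 ± 0.10), and Ap2b1, an adaptor of endocytic coats (-0.31 ± 0.11 and 0.38 ± 0.11). Both comparisons used separate arrays.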
